A study of Mus musculus with 2 samples.

Results

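The insulin-like growth factor (IGF) system was followed across the cell classes of the inflamed mouse colon through 9 genes. They were the rows of both deposited matrices with the symbols Igf1, Igf1r, Igfbp2, Igfbp3, Igfbp4, Igfbp5, Igfbp6, Igfbp7 and Pappa, 9 of the 23197 genes listed in both files. The genes were selected on their levels by cell class in these same 2 libraries, so the differences given for them are descriptions. Single-cell RNA-seq was made from proximal colon, distal colon and rectum of C57BL/6 mice aged 8 to 10 weeks, all treated with dextran sulfate sodium (DSS), a standard chemical model of colitis that damages the gut lining. One library was labelled WT and the other Elf-1 KO (Elf-1-/-). Each pooled cells of 3 mice with no map from cells to mice, so each group is 1 library, no difference was tested, and every interval covers counting error only. No untreated colon was among the samples, and the promoter or cell type of the deletion, its deleted part and the DSS dose and days are stated in none of the sources at hand.

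IGF-1 is a secreted growth factor, made in tissues largely by mesenchymal cells and macrophages, that acts through the receptor tyrosine kinase encoded by Igf1r. IGF binding proteins hold the ligand in the extracellular space, prolong its life and limit or direct its access to the receptor. Pappa encodes pappalysin-1, a secreted metalloprotease that cleaves IGFBP-4 and IGFBP-5 and so releases bound IGF, and stanniocalcins inhibit it. IGFBP-7 binds IGF weakly and is abundant in vessel walls. Elf1 encodes an ETS-family transcription factor, a family that recognises a GGAA core in DNA.

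The label of the knockout library was not borne out by its Elf1 counts. Elf1 (chr14:79481194-79582494, + strand, GRCm38) had 5741 UMIs (unique molecular identifiers, each counting 1 captured RNA molecule) in the WT library and 6774 in the other. Over all kept cells that is 192 CPM (UMIs of the gene per 1000000 UMIs) in WT and 180 CPM in the library labelled Elf1 KO. Within classes its level was 132 and 154 CPM in fibroblasts, 394 and 531 CPM in B cells and 534 and 443 CPM in T and innate lymphoid cells. Whether these UMIs fall in the deleted part was not tested, since that part is not given, and the label is quoted as such throughout. After filtering, 7718 and 9504 cells with 29975598 and 37561078 UMIs were kept, at medians of 2029.5 and 2638 UMIs per cell, and the libraries shared 44 cell barcodes. Clusters were named from marker genes, with all 9 genes and the other IGF pathway genes left out of the clustering. At least 20 cells in each library were needed, and 13 classes held them. Fibroblasts made up 1215 and 2762 cells, smooth muscle cells 402 and 1205, blood endothelial cells 129 and 185, and macrophages and monocytes 502 and 977. All 11 fibroblast markers and all 10 blood endothelial markers had UMIs in their own class in both libraries. The fibroblasts of the libraries lay mostly in different clusters. The largest were cluster 6 in WT (69.7% of fibroblasts) and cluster 14 in the library labelled Elf1 KO (49.1%). Smooth muscle cells (clusters 8 and 16) and epithelial cells (5 and 9) also lay mostly in different clusters. Of the B cells of the library labelled Elf1 KO, 523 lay in cluster 2 and 446 in cluster 1, which held 85.1% of WT B cells.

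Levels are sums of UMIs over the cells of a class, as CPM with exact Poisson 95% intervals in parentheses. Ratios are the library labelled Elf1 KO over WT, with exact conditional binomial 95% intervals. A gene is counted as higher or lower in a class where the ratio was at least 2-fold, its interval excluded 1 and the class held at least 50 UMIs of the gene over both libraries. Levels of different genes are not compared with each other.

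RNA of these genes was held mostly by fibroblasts, with exceptions in vessels, smooth muscle and neutrophils. Fibroblasts held 80.7% of all Igf1 UMIs in WT and 85.6% in the library labelled Elf1 KO, 93.5% and 94.2% of Igfbp4, 90.1% and 90.5% of Igfbp5, and 94.2% and 89.9% of Pappa. Igfbp7, the binding protein of vessel walls, was spread wider: fibroblasts held 72.3% and 70.2% of its UMIs, smooth muscle cells 11.8% and 17.4%, and blood endothelium 11.0% and 7.10%. These shares move with the makeup of each library, in which fibroblasts were 15.7% and 29.1% of the kept cells. Over all kept cells, 8 of the 9 genes had at least 50 UMIs, of which 5 (Igf1r, Igfbp5, Igfbp6, Igfbp7 and Pappa) were higher in the library labelled Elf1 KO and 0 lower, beside 7.2% higher and 18.3% lower of 15187 genes. Since fibroblasts were a larger share of that library, the counts below were made within classes.

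**Figure D1:**
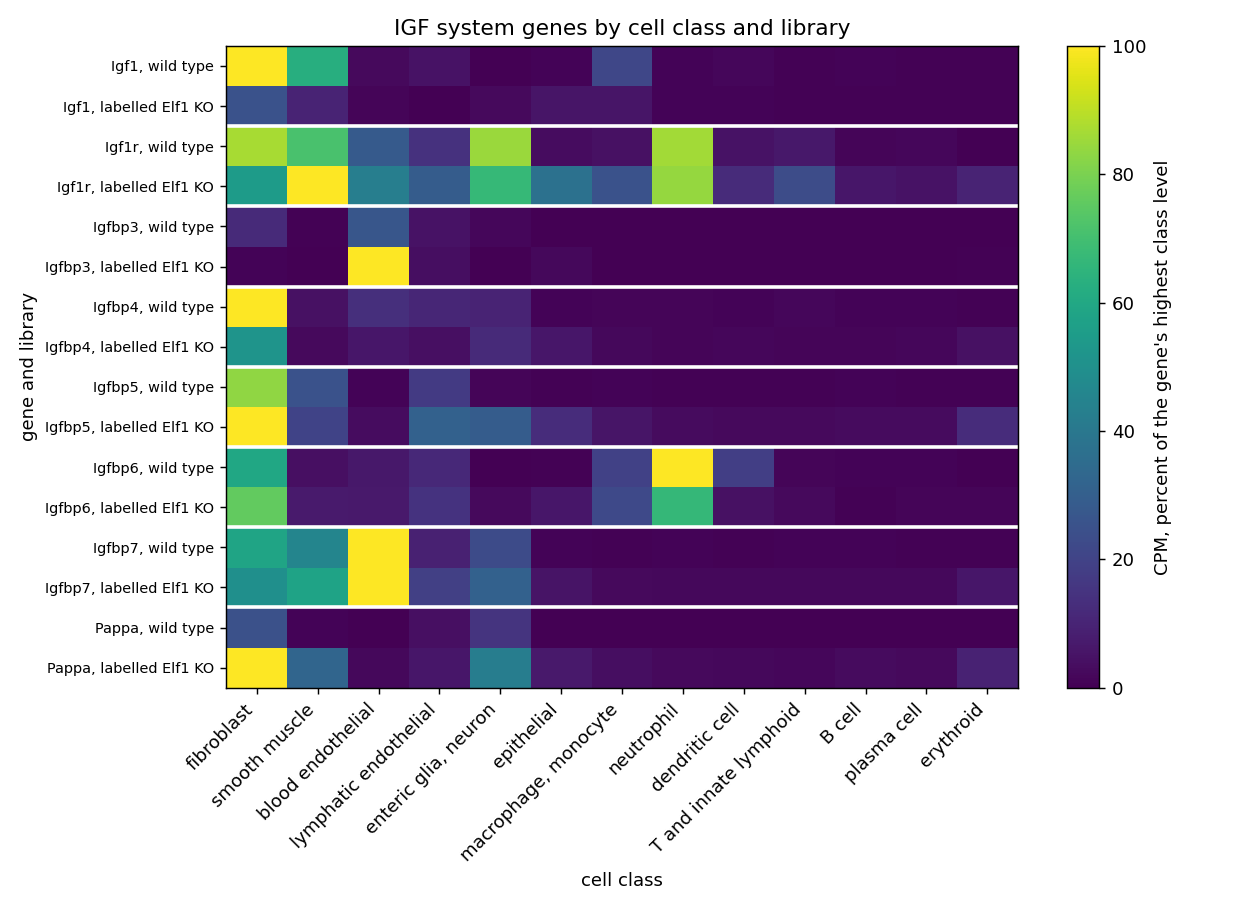
Level of 8 genes in 13 cell classes of each library, as CPM in percent of the gene's own highest class level (color scale, 0 to 100%). The fibroblast cells of the plot are at or near the top for most genes, the blood endothelial cells for Igfbp3 and Igfbp7, and neutrophils are high for Igfbp6 and Igf1r.

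**Figure D2:**
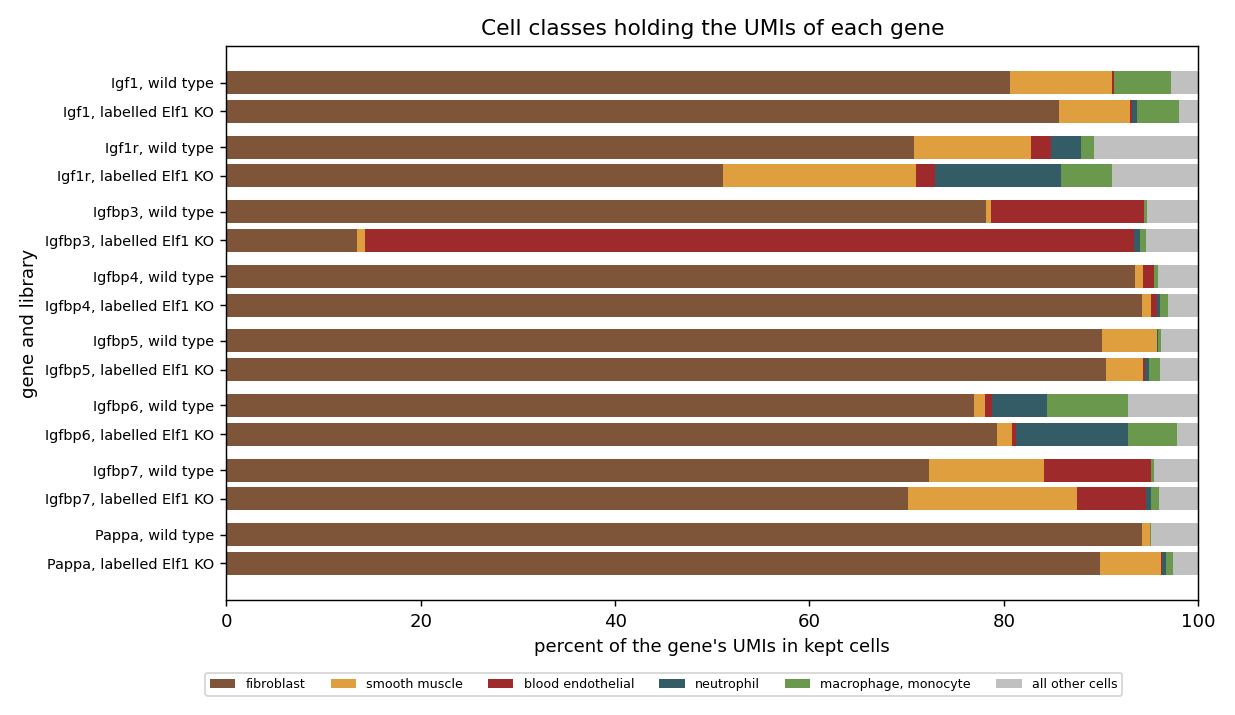
Percent of each gene's UMIs held by each cell class, 1 stacked bar per gene and library, adding to 100%. The bars of Igfbp3 change most, from 78.1% fibroblast in WT to 79.1% blood endothelial in the library labelled Elf1 KO.

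Igf1 (chr10:87858265-87937042, + strand), the ligand, was lower in its 3 main source classes in the library labelled Elf1 KO. In fibroblasts it stood at 477 CPM (459 to 496) in WT and 120 CPM (114 to 125) in the other library, from 2598 and 1908 UMIs, which is 3.99-fold lower (3.76 to 4.24). A UMI of Igf1 was found in 59.9% of WT fibroblasts and 22.6% of the others. With cells thinned to 1000 UMIs these shares were 30.8% (28.1 to 33.5) and 7.41% (6.42 to 8.50). The background of free RNA was small beside them, since B cells, which should lack the gene, had an Igf1 UMI in 0.787% and 0.394% of cells at medians of 1406 and 1163 UMIs, against 4240 and 5576 UMIs in fibroblasts.

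Smooth muscle cells held 299 CPM of Igf1 (268 to 333) in WT and 48.0 CPM (40.9 to 56.0) in the library labelled Elf1 KO, 6.23-fold lower (5.15 to 7.56). The makeup of this class differed between the libraries, and its levels by cluster are given below. Macrophages and monocytes held 102 CPM (87.6 to 117) and 27.6 CPM (22.4 to 33.6), 3.68-fold lower (2.87 to 4.75). Igf1 in that class came from cluster 0, whose leading genes include complement C1q genes, at 175 CPM in WT and 47.7 CPM in the other library. Cluster 11 of the same class had 6.23 and 5.87 CPM. The macrophage difference is the least steady of these, at a log2 ratio of -1.88 that became -1.02 with the libraries clustered separately and -3.40 with cells thinned to 1000 UMIs.

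By level of Igf1 in WT, fibroblasts, smooth muscle and macrophages stood apart from each other and from the remaining 10 classes, which reached at most 23.1 CPM with overlapping intervals between neighbours. In the library labelled Elf1 KO, fibroblasts alone stood apart, and smooth muscle (48.0 CPM), epithelial cells (27.8 CPM) and macrophages (27.6 CPM) overlapped with the next in order.

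Igf1r (chr7:67952827-68233668, + strand), the receptor, was highest in fibroblasts, smooth muscle, neutrophils and enteric glia. In WT these classes had, in that order, 102 CPM (93.3 to 110), 83.2 CPM (67.3 to 102), 101 CPM (64.6 to 150) and 99.4 CPM (45.5 to 189), and neighbours by level overlapped. The library labelled Elf1 KO had 64.4 CPM (60.5 to 68.4) in fibroblasts, 1.58-fold lower (1.42 to 1.75), and 98.5 CPM (86.9 to 111) in neutrophils, a ratio of 0.978 (0.643 to 1.55). Smooth muscle, at 117 CPM, was 1.41-fold higher (1.12 to 1.78). None of these 3 reached 2-fold.

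Igf1r passed the fold in T and innate lymphoid cells, at 7.57 and 27.3 CPM, a ratio of 3.61 (1.99 to 7.01), and in macrophages and monocytes, at 5.41 and 29.6 CPM, a ratio of 5.47 (2.86 to 11.7). It also passed in epithelial cells, at 3.96 and 43.5 CPM, a ratio of 10.98 (6.14 to 19.5), between libraries whose epithelial cells lay in different clusters. The counts behind these were small, 14 and 59 UMIs in T cells, 10 and 105 in macrophages and 28 and 25 in epithelial cells. The macrophage log2 ratio of 2.45 ran from 1.70 with cells of at least 1000 UMIs to 3.69 with thinned cells. The share of all Igf1r UMIs held by neutrophils was 3.07% in WT and 13.0% in the other library, and that held by fibroblasts 70.8% and 51.1%.

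In fibroblasts, 8 of the 9 genes had at least 50 UMIs, of which 1 was higher (Pappa), 2 lower (Igf1 and Igfbp3) and 5 neither. The background was 3.33% higher and 13% lower of 11361 genes. The median log2 ratio of the 8 genes was -0.44, beside -0.33 over all genes tested. Scaling by TMM (trimmed mean of M values) in place of total UMIs moved the log2 ratio of every gene in fibroblasts up by 0.37. With it Igf1 stood at -1.63, Igfbp3 at -3.42, Igfbp4 at -0.58, Igfbp5 at 0.63, Igfbp6 at 0.72 and Pappa at 2.38, while Igfbp7 turned from lower to 0.14. The shares of all genes became 6.50% higher and 6.46% lower. The fibroblasts' summed erythroid markers were 278 CPM in WT and 2280 CPM in the library labelled Elf1 KO, and their own markers 34262 and 38494 CPM.

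Igfbp3 (chr11:7206086-7213923, − strand), the main IGF carrier of blood plasma, was higher in blood endothelium and lower in fibroblasts in the library labelled Elf1 KO. Blood endothelium held 509 CPM (447 to 577) in WT and 1891 CPM (1797 to 1988) in the other library, from 245 and 1518 UMIs, a ratio of 3.72 (3.25 to 4.27). Fibroblasts held 223 CPM (211 to 236) and 16.2 CPM (14.3 to 18.3), from 1215 and 258 UMIs, 13.8-fold lower (12.1 to 15.9). The opposite differences left the level over all kept cells at 51.9 and 51.1 CPM, a ratio of 0.985 (0.921 to 1.05).

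The number of cells with Igfbp3 RNA differed in the same directions as its level. A UMI was found in 34.9% (26.7 to 43.8) of WT blood endothelial cells and 69.2% (62.0 to 75.8) of the others, and with thinned cells in 24.5% and 55.2%. In fibroblasts the shares were 24.4% and 5.21%, thinned 12.6% and 1.78%, beside 0.394% and 0.493% of B cells. Fibroblasts thus held 78.1% (76.0 to 80.2) of all Igfbp3 UMIs in WT and 13.4% (11.9 to 15.1) in the library labelled Elf1 KO, and blood endothelium 15.8% and 79.1%. Lymphatic endothelium, a single cluster, had 95.8 and 70.6 CPM with a ratio interval that included 1.

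Blood endothelial cells formed a single cluster. Markers of other cells differed in both directions between the libraries. In them the summed level of fibroblast markers was 405 CPM in WT and 1811 CPM in the other library, of erythroid markers 280 and 17549 CPM, and of neutrophil markers 78.9 and 4086 CPM. Plasma cell markers summed to 18964 and 2910 CPM, in WT above the endothelial cells' own markers, which summed to 14079 and 10669 CPM. Epithelial (343 and 41.1 CPM), B cell (133 and 21.2 CPM) and T cell markers (127 and 12.5 CPM) were also lower in the library labelled Elf1 KO. Their part in the endothelial differences was not tested. The level of Igfbp3 itself in that library was 16.2 CPM in fibroblasts, 8.05 CPM in erythroid cells and 4.91 CPM in neutrophils.

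Igfbp4 (chr11:99041244-99054392, + strand), which restrains IGF until Pappa cleaves it, was highest in fibroblasts in both libraries. It stood at 8217 CPM in WT and 4249 CPM in the library labelled Elf1 KO, 1.93-fold lower (1.91 to 1.96), just under the 2-fold limit. Blood endothelium had 1109 and 506 CPM, 2.19-fold lower (1.92 to 2.5), and lymphatic endothelium 892 and 340 CPM, 2.63-fold lower (2.19 to 3.14). Both endothelial differences depended on the processing: the log2 ratio in blood endothelium, -1.13, became -0.86 with doublets kept, -0.94 as a mean over cells and -0.96 with TMM, and that in lymphatic endothelium, -1.39, became -0.34 with doublets kept and -0.98 with the libraries clustered separately.

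Enteric glia and neurons (26 and 42 cells) held 818 and 994.2 CPM of Igfbp4, and smooth muscle 363 and 201 CPM, 1.81-fold lower. Epithelial cells had 75.6 and 503 CPM. The epithelial cells of the libraries were different cells, 1074 mostly in cluster 5 in WT and 83 mostly in cluster 9, led by the enteroendocrine genes Chgb, Pyy and Chga, in the other, and their fibroblast markers summed to 339 and 3823 CPM.

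The promoters of Igf1, Igfbp3 and Igfbp4 are shown because this ligand and these binding proteins had the lowest fibroblast ratios of the genes with at least 50 UMIs, and because Elf1 belongs to the ETS family. Igf1r and Igfbp7 were also lower in fibroblasts, by less. The sequences are from RefSeq on GRCm38.p6, 250 bases before to 50 after the annotated start, 5′ to 3′ on the gene's strand, with each GGAA or its reverse complement TTCC in capitals. They lie at chr10:87860861-87861160 (Igf1, + strand, inside the gene as GENCODE draws it), chr11:7213874-7214173 (Igfbp3, − strand) and chr11:99040994-99041293 (Igfbp4, + strand).
Igf1: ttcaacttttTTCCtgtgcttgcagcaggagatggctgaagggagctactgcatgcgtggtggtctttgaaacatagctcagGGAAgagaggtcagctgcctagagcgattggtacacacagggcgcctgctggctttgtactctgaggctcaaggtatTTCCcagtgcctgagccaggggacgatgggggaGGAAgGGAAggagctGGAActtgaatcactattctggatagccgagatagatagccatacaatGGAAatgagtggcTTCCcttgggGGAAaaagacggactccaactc
Igfbp3: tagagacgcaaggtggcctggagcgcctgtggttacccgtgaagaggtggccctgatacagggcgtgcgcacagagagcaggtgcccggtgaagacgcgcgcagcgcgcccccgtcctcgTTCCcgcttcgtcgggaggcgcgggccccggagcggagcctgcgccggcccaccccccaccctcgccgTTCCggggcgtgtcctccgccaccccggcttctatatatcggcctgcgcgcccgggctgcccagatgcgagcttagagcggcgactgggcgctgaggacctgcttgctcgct
Igfbp4: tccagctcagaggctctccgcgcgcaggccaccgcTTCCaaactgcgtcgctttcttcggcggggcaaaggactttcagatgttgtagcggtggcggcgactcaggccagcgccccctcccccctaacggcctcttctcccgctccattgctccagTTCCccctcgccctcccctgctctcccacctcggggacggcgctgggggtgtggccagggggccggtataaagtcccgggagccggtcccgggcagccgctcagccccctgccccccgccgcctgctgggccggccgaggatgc
The Igf1 promoter held 9 matches to GGAA on both strands, and those of Igfbp3 and Igfbp4 2 each. Promoters not shown held 6 (Igfbp5, not lower in fibroblasts), 4 (Igfbp6, not lower), 2 (Igf1r) and 1 (Igfbp7). The 2 promoters of Igfbp2 held 3 and 5. Over 32851 promoters of 27025 genes the median was 3, with the middle 95% between 0 and 8, and 96.0% held at least 1. The longer CCGGAA, which contains GGAA, was found once in Igfbp3 and not in the windows of Igf1 and Igfbp4, beside 14.9% of all promoters. RefSeq promoters were matched for 8 of the 9 genes, and a match describes these letters only.

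Igfbp5 (chr1:72857932-72874884, − strand), the other binding protein that Pappa cleaves, was highest in fibroblasts and did not pass the fold there. Fibroblasts held 4890 CPM in WT and 5857 CPM in the library labelled Elf1 KO, a ratio of 1.2 (1.18 to 1.21). Lymphatic endothelium held 988 and 1826 CPM, a ratio of 1.85 (1.63 to 2.10), and smooth muscle 1478 and 1171 CPM, a ratio of 0.793 (0.748 to 0.840).

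Enteric glia and neurons passed the fold for Igfbp5, at 77.3 and 1711 CPM from 7 and 284 UMIs, a ratio of 22.1 (10.6 to 55.5). Its log2 ratio of 4.47 was 1.87 with doublets kept, and the summed fibroblast markers of this class were 1889 and 5447 CPM. Blood endothelium had 47.8 and 202 CPM, a ratio of 4.23 (2.72 to 6.86), with a log2 ratio of 2.08 that was 1.05 with doublets kept. Macrophages and monocytes had 55.7 and 322 CPM, with fibroblast markers at 461 and 1562 CPM. The part of fibroblast RNA in these 3 differences was not tested.

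Igfbp6 (chr15:102144362-102149511, + strand), which prefers IGF-2 over IGF-1, was high in neutrophils as well as in fibroblasts. Neutrophils held 231 CPM (174 to 301) in WT and 154 CPM (139 to 169) in the library labelled Elf1 KO, a ratio of 0.665 (0.501 to 0.898). Fibroblasts held 138 CPM (128 to 148) and 176 CPM (169 to 182), a ratio of 1.28 (1.18 to 1.39), so that the order of these 2 classes was opposite in the libraries, with intervals apart in each. A UMI was found in 17.4% and 20.7% of neutrophils, beside 0.354% and 0.296% of B cells. Thinned to 1000 UMIs, the neutrophil shares were 17.7% and 14.0%.

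Within macrophages and monocytes, Igfbp6 lay in cluster 11 (89.6 and 86.3 CPM) more than in cluster 0 (9.56 and 18.4 CPM), the reverse of Igf1. Among fibroblasts it was concentrated in the adventitial sub-cluster 11, of 14 and 117 cells, at 4308 and 2257 CPM. Sub-cluster 8 held 220 and 221 CPM.

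Igfbp7 (chr5:77349240-77408041, − strand) was highest in blood endothelium, at 13711 CPM in both libraries, a ratio of 1.00 (0.970 to 1.03). Fibroblasts held 7981 and 6816 CPM, 1.171-fold lower, a direction that turned with TMM as given above. Smooth muscle held 6265 and 7931 CPM, a ratio of 1.27 (1.23 to 1.30). Lymphatic endothelium passed the fold, at 1275 and 2623 CPM, a ratio of 2.06 (1.84 to 2.30).

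Igfbp2 (chr1:72824503-72852474, + strand) was hardly detected, with 6 UMIs in the WT library and 23 in the other. Fibroblasts held 3 and 18 of them and smooth muscle cells 2 and 4. No ratio is given at this depth.

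Pappa (chr4:65124174-65357509, + strand), the protease, was the gene of the set that passed the fold upward in fibroblasts. Its level was 202 CPM (190 to 214) in WT and 812 CPM (798 to 826) in the library labelled Elf1 KO, from 1098 and 12953 UMIs, a ratio of 4.02 (3.78 to 4.28). A UMI was found in 25.8% of WT fibroblasts and 74.1% of the others, thinned 11.9% and 47.6%. B cells had one in 0.472% and 3.35% of cells, at medians of 1406 and 1163 UMIs against 4240 and 5576 in fibroblasts. Free RNA and low expression cannot be told apart in these B cell shares.

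Enteric glia and neurons held 122 and 343 CPM of Pappa, from 11 and 57 UMIs, a ratio of 2.83 (1.47 to 5.98), beside the fibroblast markers given above for this class. In smooth muscle it was 8.85 and 265 CPM, from 10 and 900 UMIs, a ratio of 29.95 (16.2 to 62.7). The smooth muscle class of the library labelled Elf1 KO carried 28235 CPM of fibroblast markers against 4685 CPM of its own. Its Pappa levels by cluster, given below, were far lower outside cluster 16. Macrophages and monocytes had 1 and 103 UMIs, or 0.541 and 29.0 CPM, and their Pappa log2 ratio of 5.75 was 1.98 with cells thinned to 1000 UMIs. Per cell the latter was 3.12 times the free-RNA bound, which is the lowest mean UMIs per cell of the gene in any named class of the library. T and innate lymphoid cells set it, at a median of 1480 UMIs against 2942 in macrophages and monocytes. Blood endothelium had 0 and 14 UMIs.

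**Figure D3:**
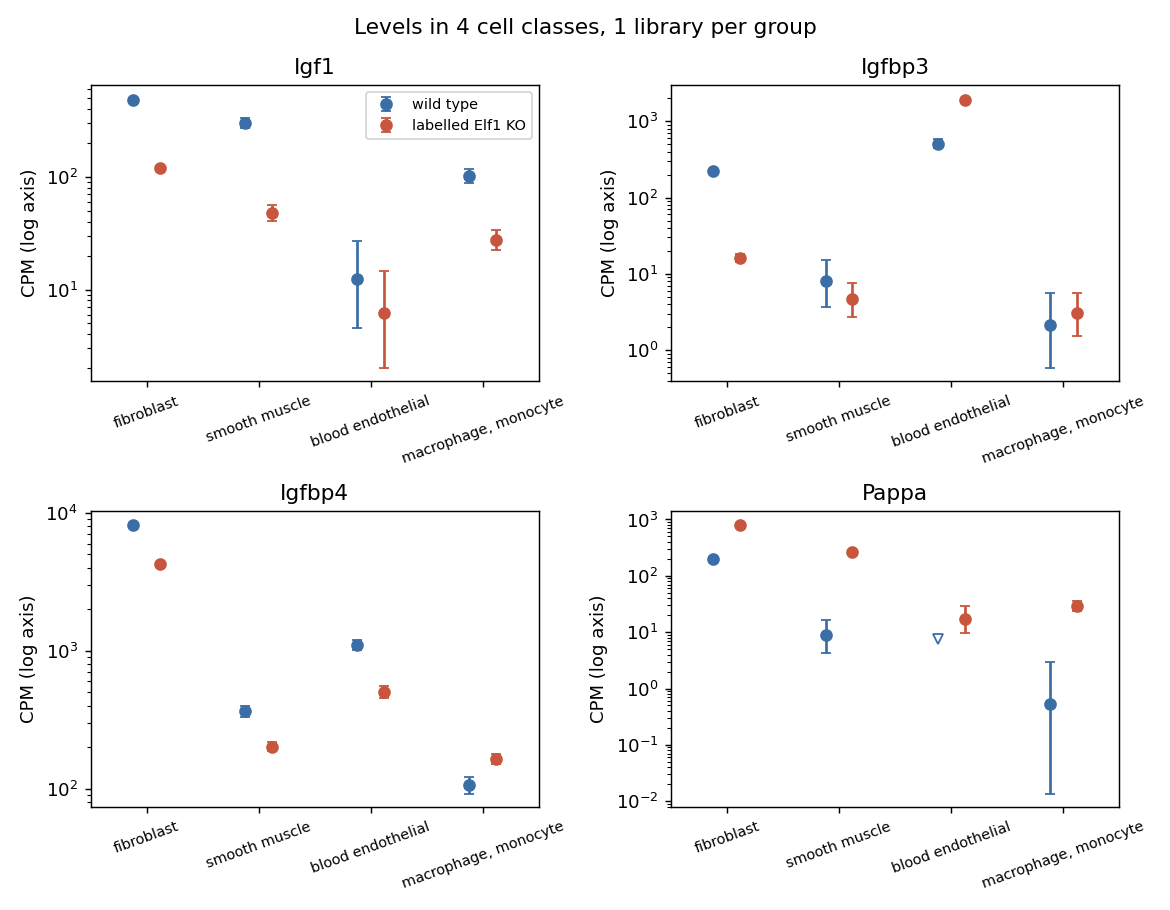
CPM of Igf1, Igfbp3, Igfbp4 and Pappa on a log axis in 4 cell classes of each library, with exact Poisson 95% intervals (the open triangle marks the upper bound where 0 UMIs were counted). In fibroblasts Igf1, Igfbp3 and Igfbp4 lie lower and Pappa higher in the library labelled Elf1 KO, while Igfbp3 lies higher in its blood endothelium.

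Because the fibroblasts of the libraries lay in different clusters, levels were also read within fibroblast sub-clusters. Of 12 sub-clusters, 4 held at least 20 cells of each library. They were sub-cluster 1 (28 and 321 cells, shallow and led by haemoglobin genes), 6 (29 and 304 cells, led by the collagenase gene Mmp13 and the stromelysin gene Mmp10), 7 (60 and 83 cells, led by Ptn) and 8 (108 and 326 cells, with Il33 and Col14a1 among its leading genes). None of these 4 could be named from the markers.

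Pappa was higher and Igfbp4 lower in all 4 sub-clusters with intervals of the ratio that excluded 1. Pappa stood at 374 CPM in WT and 887 CPM in the library labelled Elf1 KO in sub-cluster 1, at 680 and 1362 CPM in 6, at 16.4 and 80.1 CPM in 7 and at 1.72 and 82.3 CPM in 8. Igfbp4 stood at 8273 and 3942 CPM in sub-cluster 1, at 3418 and 1020 CPM in 6, and at 6710 and 2445 CPM in 8. In sub-cluster 7 the Igfbp4 difference was smaller, at 1599 and 1220 CPM. The WT levels of Pappa in sub-clusters 7 (60 WT cells) and 8 (108 WT cells) rest on few UMIs. The Pappa levels of sub-clusters 7 and 8 in the library labelled Elf1 KO were near that of its erythroid cells (77.1 CPM). Its epithelial cells held 55.7 CPM. The part of free RNA in these 2 sub-clusters was not tested.

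Igf1 did not keep 1 direction. It was lower in 3 sub-clusters, at 786 and 91.6 CPM in 1, at 151 and 23.3 CPM in 6 and at 472 and 261 CPM in 8. In sub-cluster 7 it was higher, at 519 and 795 CPM, a ratio of 1.53 (1.21 to 1.95). Igfbp3 was lower in sub-clusters 1 (337 and 16.7 CPM), 6 (94.4 and 22.0 CPM) and 7 (197 and 80.1 CPM) and near 0 in 8 (1.72 and 3.37 CPM).

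Igfbp5 was higher in all 4, at 3893 and 6637 CPM in sub-cluster 1, 1143 and 2143 CPM in 6, 92.8 and 512 CPM in 7 and 784 and 920 CPM in 8. The level in sub-cluster 7 of the library labelled Elf1 KO lay below those of its epithelial (745 CPM) and erythroid cells (735 CPM). The part of free RNA in Igfbp5 was not tested. With coarser sub-clusters Igfbp5 was higher in 3 of 4 and lower in 1. The 4 sub-clusters were also given the same weights in both libraries, each weighted by its cells of both libraries together. This gave log2 ratios of -1.18 for Igf1, -2.77 for Igfbp3, -1.28 for Igfbp4, 0.74 for Igfbp5 and 1.1702 for Pappa. Compared with the whole class, Igf1, Igfbp3 and Pappa differed less and Igfbp4 more. Igf1r turned from lower over the class to a log2 ratio of 1.03, with levels of 0 and 66.6 CPM in sub-cluster 1, 28.3 and 53.3 CPM in 6, 32.8 and 29.4 CPM in 7 and 37.8 and 39.3 CPM in 8. The interval of its ratio included 1 in each of the 4. Sub-cluster 1, with 0 CPM in WT, is the shallow sub-cluster led by haemoglobin genes.

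The remaining sub-clusters belonged mostly to 1 library, apart from sub-cluster 10. That sub-cluster, named inflamed, held 19 WT cells and 26 of the other library, too few WT cells for the comparison above. Sub-cluster 0, named homeostatic lamina propria fibroblasts, held 717 WT cells and 10 others, with 531 CPM of Igf1, 280 CPM of Igfbp3, 10640 CPM of Igfbp4 and 155 CPM of Pappa in WT. Sub-cluster 3, named inflamed, held 17 and 890 cells, with 1156 CPM of Pappa and 8911 CPM of Igfbp5 in the library labelled Elf1 KO. Sub-cluster 9, also named inflamed, held 69 WT cells and 0 of the other library. Mmp13, Mmp10 and Stc1 were among its leading genes. High Pappa was also found in WT fibroblasts: sub-cluster 5, with 144 WT cells and 0 of the other library, held 772 CPM of it, and 386 CPM of Igfbp3.

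**Figure D4:**
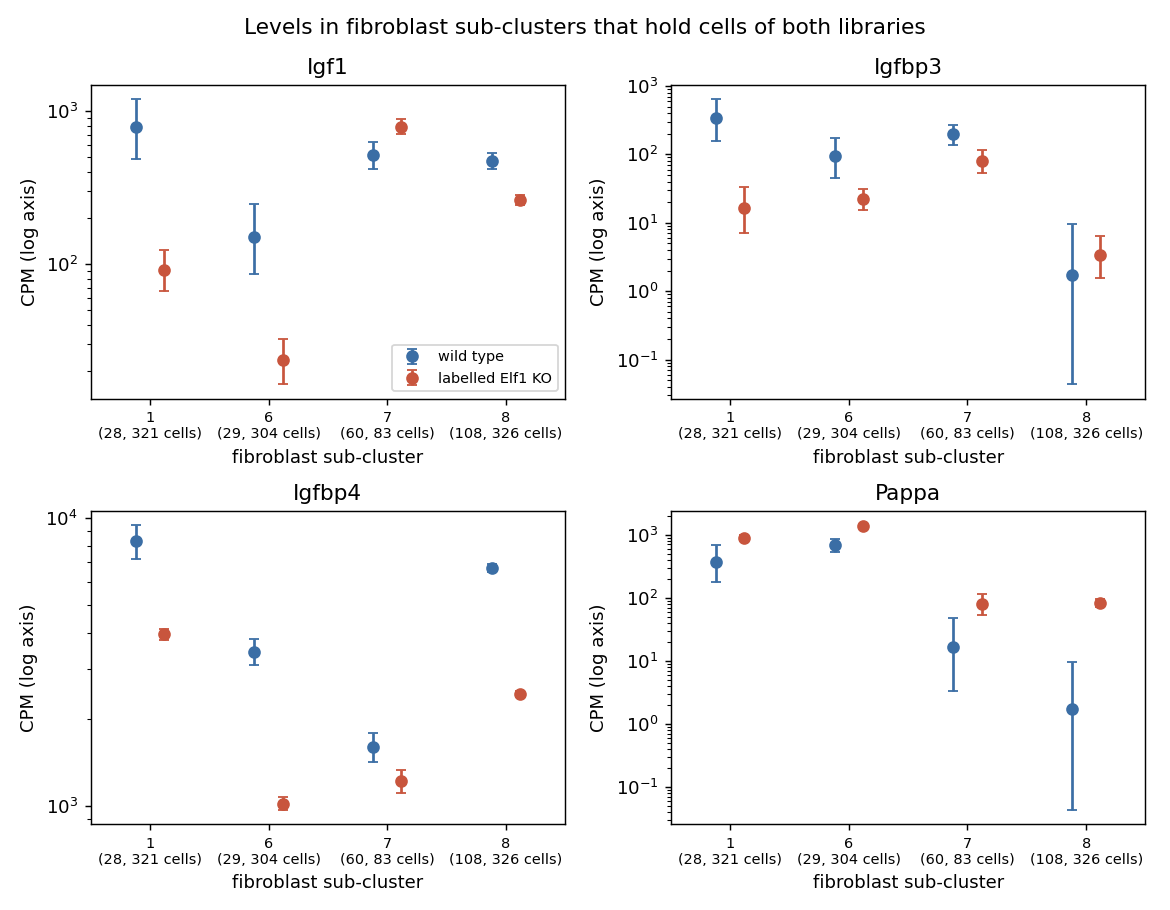
CPM of Igf1, Igfbp3, Igfbp4 and Pappa on a log axis in the 4 fibroblast sub-clusters with at least 20 cells of each library, with exact Poisson 95% intervals. Pappa lies higher and Igfbp4 lower in the library labelled Elf1 KO in all 4, and Igf1 lies higher there in sub-cluster 7 alone.

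Smooth muscle passed the fold for Pappa (higher) and Igf1 (lower) among 7 of the 9 genes with at least 50 UMIs, beside 6.08% higher and 10.9% lower of 7760 genes. The class differed in its makeup. Smooth muscle markers summed to 19059 CPM in WT and 4685 CPM in the library labelled Elf1 KO, and fibroblast markers to 11036 and 28235 CPM. In the latter library the cells of this class thus carried more fibroblast than smooth muscle marker RNA, 86.6% of them lay in cluster 16, and the fibroblast gene Dcn was among the leading genes of that cluster. The part of this in the class-wide ratios was not tested.

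Within cluster 16 (56 and 1044 cells), Pappa stood at 31.9 and 303 CPM and Igf1 at 268 and 44.5 CPM. Cluster 8 (278 and 20 cells), led by contractile genes such as Tagln and Acta2, had Pappa at 6.54 and 29.6 CPM and Igf1 at 375 and 29.6 CPM. Cluster 19 (68 and 141 cells), with the pericyte gene Rgs5 among its leading genes, had Pappa at 0 and 13.2 CPM, and Igf1 at 43.3 and 78.9 CPM, not lower. Igfbp4 was at 721 and 205 CPM in cluster 16, 303 and 44.4 CPM in 8, and 313 and 195 CPM in 19. Cluster 8 held 20 cells of the library labelled Elf1 KO, at a cluster median of 2606 UMIs per cell. The levels of that library in cluster 8 thus rest on few UMIs of each gene.

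The other genes of the IGF pathway list were 22, of which 21 were in a file. In fibroblasts 17 had at least 50 UMIs, with 1 higher, 6 lower and 10 neither, beside the 3.33% and 13% of all fibroblast genes given above. Their median log2 ratio was -0.67, beside -0.33 over all genes tested. With TMM 2 were higher and 4 lower, beside 6.50% and 6.46% of all genes. Stc2 (-0.77) and Grb10 (-0.80) then no longer passed, and Igf2bp2 (1.12) did. The higher gene was Pappa2, a second IGFBP protease, at 24.6 and 88.1 CPM, a ratio of 3.58. Among the lower were both stanniocalcins, inhibitors of Pappa: Stc1 at 43.2 and 9.40 CPM, 4.59-fold lower, and Stc2 at 6.61 and 3.01 CPM, 2.20-fold lower. Htra1, a serine protease that also cleaves IGF binding proteins, was at 483 and 81.3 CPM, 5.95-fold lower.

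The remaining lower genes act downstream of the receptor. They were the adaptor Irs1, at 12.1 and 2.88 CPM, the adaptor Grb10, at 62.8 and 28.0 CPM, and the PI3-kinase subunit Pik3r1, at 74.0 and 23.8 CPM. Among the 10 that passed neither way were the IGF-2 receptor Igf2r (55.3 and 37.4 CPM), the insulin receptor Insr (17.8 and 11.2 CPM), the growth hormone receptor Ghr (86.7 and 77.5 CPM), Irs2 (53.6 and 71.6 CPM) and the kinase Akt1 (95.2 and 89.9 CPM). The second ligand, Igf2, had 4 and 3 UMIs in fibroblasts.

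Htra1 was also lower in each of the 4 shared sub-clusters, at 412 and 81.2 CPM in 1, 415 and 226 CPM in 6, 207 and 45.4 CPM in 7 and 94.4 and 16.1 CPM in 8. Stc1 in sub-cluster 6 was at 264 and 14.0 CPM. Pappa2 was higher in sub-cluster 8, at 75.5 and 280 CPM, and stood at 142 and 110 CPM in 6.

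Outside fibroblasts, genes of the pathway list passed the fold in both directions. Smooth muscle had 1 higher and 1 lower of 11 with at least 50 UMIs, beside the 6.08% and 10.9% of all genes given above. These were Irs2 (24.8 and 62.8 CPM) and Htra1 (533 and 144 CPM, 3.71-fold lower). Blood endothelium had 0 higher and 1 lower of 7, Insr (203 and 71.0 CPM, 2.87-fold lower). Dendritic cells had 3 higher and 0 lower of 4: the cytokine signalling inhibitor Socs2 (156 and 682 CPM), Pik3r1 (123 and 377 CPM) and Htra1 (7.81 and 137 CPM).

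T and innate lymphoid cells had 2 higher of 8, Irs2 (38.4 and 92.2 CPM) and Socs2 (51.9 and 113 CPM), and 1 lower, the transcription factor Foxo3 (31.3 and 10.2 CPM). Epithelial cells had 3 higher and 2 lower of 14. Macrophages and monocytes (Htra1, 34.6 and 80.3 CPM), plasma cells (Irs2, 20.3 and 52.0 CPM) and enteric glia (Htra1, 99.4 and 386 CPM) had 1 higher each and 0 lower. B cells, neutrophils and lymphatic endothelium had 0 in either direction. The shares of all genes past the fold in these classes stand beside the counts of the 9 genes that follow.

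In the remaining classes the counts of the 9 genes were as follows. Blood endothelium had 5 genes with at least 50 UMIs, of which 2 were higher (Igfbp3 and Igfbp5) and 1 lower (Igfbp4), beside 5.54% higher and 7.42% lower of 3988 genes. Lymphatic endothelium had 4, with 1 higher (Igfbp7) and 1 lower (Igfbp4), beside 4.63% and 6.2% of 3260. Macrophages and monocytes had 7, with 4 higher (Igf1r, Igfbp5, Igfbp7 and Pappa) and 1 lower (Igf1), beside 5.27% and 6.25% of 7514. Enteric glia and neurons had 4, with 2 higher (Igfbp5 and Pappa) and 0 lower, beside 7.54% and 5.03% of 835.

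B cells, T and innate lymphoid cells, neutrophils, dendritic cells, plasma cells, epithelial cells and erythroid cells had 3, 3, 2, 2, 4, 4 and 4 genes higher and 0 lower. The genes with at least 50 UMIs were, in the same order, 4, 4, 6, 3, 4, 4 and 4. The shares of all genes higher in these classes, in the same order, were 3.99%, 5.33%, 5.43%, 10.8%, 7.41%, 17.1% and 66%, and the shares lower 5.99%, 3.48%, 8.96%, 7.84%, 4.86%, 19.3% and 1.7%. Apart from Igf1r in T cells and epithelial cells, the genes counted were among Igfbp4, Igfbp5, Igfbp7 and Pappa. In the library labelled Elf1 KO, B, T, dendritic cells and neutrophils held 1.00 to 1.84 times the free-RNA bound of these 4 genes. B or T cells set that bound, so it cannot tell free RNA from low expression in these classes, and no expression is read from their levels. Plasma cells stood at 7.13 to 10.8 times the bound, epithelial cells at 9.92 to 19.5 times and erythroid cells at 14.3 to 23.2 times. These multiples are per cell and move with depth. Median UMIs there were 12750, 5691 and 7479 in this order, against 1163 in B cells and 1480 in T and innate lymphoid cells. As CPM, plasma cells stood near B cells for Igfbp5 (162 and 164), Igfbp7 (277 and 298) and Pappa (21.7 and 23.7). For Igfbp4 plasma cells were higher (151 and 107). Summed fibroblast markers were 333 and 1225 CPM in B cells, 195 and 1185 CPM in plasma cells, and 176 and 3578 CPM in erythroid cells, and their part in these differences was not tested. With doublets kept, 3 of the 4 plasma cell genes no longer passed (Igfbp4 at a log2 ratio of -0.76, Igfbp5 at 0.52 and Igfbp7 at 0.42). Igfbp7 in dendritic cells did not pass with thinned cells (0.96) or as a mean over cells (0.87), nor Pappa in B cells with free RNA subtracted (0.37).

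Across the 13 classes and 2 libraries (26 points, which share library depth and free RNA), each gene was set beside 9414 others by Pearson's r of log2(CPM + 1). The 3 most alike were Adamdec1 (0.89), Plau (0.88) and Svep1 (0.87) for Igf1, and Csf1 (0.92), Pdlim7 (0.88) and Cebpd (0.87) for Igf1r. They were Inhbb (0.86), Plvap (0.85) and Ccnyl1 (0.85) for Igfbp3, of which Plvap is an endothelial marker. For Igfbp4 they were Col18a1 (0.90), Fbln2 (0.89) and Eln (0.89), genes of the extracellular matrix. For Igfbp5 they were Pdpn (0.94), Serpina3n (0.93) and Srpx2 (0.92), and for Igfbp6 Pi16 (0.86), Ggt5 (0.85) and Il13ra1 (0.84). The nearest to Igfbp7 were the basement membrane collagens Col4a1 (0.98) and Col4a2 (0.97) and Plpp3 (0.97). Pappa was nearest to Angptl4 (0.92), Gfpt2 (0.91) and Serpina3n (0.91).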

How the data were processed

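The deposited values were raw UMI counts of each gene in each barcode, not normalized. The submitters' processing notes name cutadapt 1.17, STAR 2.6.1a, featureCounts 2.0.1 and GRCm38, and say nothing of strand. Kept barcodes had 500 UMIs and 200 genes or more, with no more than 25% of UMIs mitochondrial. Doublets were called by scrublet in scanpy 1.11.5 (expected rate 0.06). It marked 230 barcodes (2.36%) in the library labelled Elf1 KO, which were removed. In the WT library it marked 2, under the limit of 0.5%, so the 5% with the highest scores (406) were removed there. Both libraries were clustered together (2000 variable genes without the IGF genes, 30 components, 15 neighbours, Leiden resolution 1, fibroblasts again at 0.8). How clusters are named was decided with the clusters in view. A class needed the highest mean log2 excess over its markers, 3 markers at least 4-fold up, a lead of 0.75 (0.3 for sub-clusters) and no more of another class's markers among the 10 leading genes. A cluster of median depth below that of its sample divided by 3, without own markers there, stayed unnamed.

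Computed from the counts were CPM with exact Poisson intervals, ratios with exact conditional binomial intervals and shares with Clopper-Pearson intervals, all 95% (scipy 1.17.1). In the point value of a ratio alone, a count of 0 was taken as 3. The intervals cover counting error only, and no test was possible with 1 library per group. Interval coverage was checked on simulated data. Named were all 9 genes, those of a pathway list that passed or serve as examples, and for each gene with at least 500 UMIs the 3 genes of highest r. The 9 genes and the lists were chosen with earlier results of these data known. Gene coordinates are from GENCODE M21 and promoters from RefSeq. Alternatives were other filters, doublets kept, other resolutions, separate clustering, thinning, TMM scaling, free RNA subtracted, mean over cells, the same sub-cluster weights in both libraries and another UMI minimum. TMM for the pathway list was added after the data were seen.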

Additional observations from a re-analysis of the deposited data

Results flagged for a closer look

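Igfbp3 and Igfbp4 differed between the libraries in opposite directions in different cell classes, with counting intervals on either side of no difference. The log2 ratio of Igfbp3 (library labelled Elf1 KO over WT) was 1.89 in blood endothelium and -3.79 in fibroblasts. For Igfbp4 it was -1.13 in blood endothelium and -1.39 in lymphatic endothelium, against 2.73 in epithelial cells, 3.30 in erythroid cells and 1.2 in plasma cells. Classes were taken where the gene passed the fold at 10 or more times the free-RNA bound (the lowest mean UMIs per cell in any class) in the library where it was higher, so the choice itself rests on the higher side. In the other library Igfbp4 stood at 3.01 times the bound in epithelial cells, 2.36 in erythroid cells and 5.75 in plasma cells (WT), and at 12.3 and 6.82 in blood and lymphatic endothelium (library labelled Elf1 KO). Multiples of the bound move with depth, and B cells set it for Igfbp4. In the library labelled Elf1 KO their median was 1163 UMIs, against 12750 in plasma, 7479 in erythroid and 5691 in epithelial cells. With 1 library per group the difference between classes was not tested. The epithelial values compare different clusters, and the plasma cell value turned to -0.76 with doublets kept. Both endothelial Igfbp4 values were under 2-fold with doublets kept, at -0.86 and -0.34. In erythroid cells 66% of all genes were higher, with a median log2 ratio of 1.60, and fibroblast markers summed to 176 CPM in WT and 3578 CPM in the other library.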

How the results depend on the processing

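The 64 ratios of a gene in a class took 760 values under other settings. Of these values, 594 stayed within the ratio's counting interval and 160 moved outside it. The other 6 turned in sign, from ratios whose interval excluded 1. In fibroblasts these were the log2 ratios of Igf1r with the same sub-cluster weights in both libraries (1.03) and Igfbp7 with TMM (0.14). With the libraries clustered separately they were Igfbp4 in T and innate lymphoid cells (0.22) and Igfbp7 in enteric glia (-0.013). The others were Igfbp4 in plasma cells with doublets kept (-0.76) and Pappa in neutrophils with thinned cells (-0.17). Where the interval included 1, a turn in sign was counted only as within or outside it. Such log2 ratios include Igfbp6 in macrophages and monocytes (0.20, as low as -1.36) and Igfbp4 in neutrophils (-0.28, as high as 1.37). The median log2 ratio of the genes in fibroblasts, -0.44, became -0.074 with TMM, -0.23 with genes of at least 20 UMIs and -0.035 with the same sub-cluster weights. The count of genes at least 2-fold higher in fibroblasts was 2 in place of 1 as a mean over cells and with the same sub-cluster weights. With these weights 3 were lower in place of 2, Igfbp4 (-1.28) being added. No interval was computed for the weighted ratios, so there the genes were counted by fold alone. The higher gene added with these weights was Igf1r (1.03), whose ratio interval included 1 in each of the 4 sub-clusters. The share of all genes higher in fibroblasts was 6.50% with TMM against 3.33%, and lower 6.46% against 13.0%. Leaving out fibroblast sub-clusters 1 and 10, a choice made after seeing the data, left these counts at 1 higher and 2 lower. Of 39 ratios past the fold, 30 moved by over 1.5 times or no longer passed under at least 1 setting, such as Pappa in macrophages (5.75, from 1.98 thinned to 6.40 as a mean over cells). Of these, 7 no longer passed under at least 1 setting: Igfbp4 in blood and lymphatic endothelium and in plasma cells, Igfbp5 and Igfbp7 in plasma cells, Igfbp7 in dendritic cells and Pappa in B cells. The cause was not tested. No paired analysis was possible because each group is 1 library. Depth limits Igfbp2 in every class and most genes in enteric glia.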
